A study of Homo sapiens with 24 samples.

Results

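The mRNAs of 8 nonsense-mediated RNA decay (NMD) factors, UPF1, UPF2, UPF3A, UPF3B, SMG1, SMG5, SMG8 and SMG9, were followed through the deletion or replacement of HAR123 in human cells. HAR123 is a noncoding enhancer within an intron of SMG6, which encodes another NMD factor. The 8 genes were taken from the count table by gene symbol, and are 8 of the 61551 genes in it. All cells derived from H9, an established line of human embryonic stem cells (ESCs). They carried the human enhancer (hHAR123, the wild type), no HAR123 (HAR123-KO, deleted with CRISPR-Cas9), or a knocked-in chimpanzee (cHAR123) or mouse (mHAR123) HAR123 in place of the human sequence. Each genotype was sequenced as untreated ESCs and as neuroectoderm (ECTO), obtained by culture for 5 days with 500 ng/ml Noggin, a BMP antagonist, and 10 uM SB431542, an inhibitor of activin and TGF-beta receptors. With 3 libraries for each genotype and stage there were 24 libraries. The study used a pair of independent clones of each genotype, so some of the 3 libraries of each group shared a clone. The clone behind each library is not given. The p-values below therefore measure the spread between libraries, part of which may be technical, and do not give the spread between clones. Genotype differences cannot be told apart from differences between clones or from effects of the editing itself, since hHAR123 was the wild type. Because HAR123 is intronic, exon counts do not check the deletion itself.

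NMD degrades mRNAs on which translation ends too early and also a set of normal mRNAs. UPF1, an RNA helicase, is recruited where a ribosome terminates. UPF2 and the paralogs UPF3A and UPF3B connect UPF1 to the exon junction complex, which splicing leaves on the mRNA. SMG1 is the kinase that phosphorylates UPF1, and SMG8 and SMG9 bind this kinase and regulate it. Phosphorylated UPF1 attracts SMG6, an endonuclease, and SMG5, which promotes removal of the cap and of the poly(A) tail. In neural development, NMD has been linked to the choice between progenitor maintenance and differentiation, and variants of UPF3B cause intellectual disability.

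Total counts per library were 23334732 to 35198684 in ESCs and 21022748 to 25978892 in neuroectoderm, and mitochondrial genes took 4.02% to 4.48% and 2.16% to 2.63% of them. All pluripotency markers were above 1 CPM (counts scaled to the total of their library) in ESCs, and all 7 neuroectoderm markers were above that level in hHAR123 neuroectoderm. The summed level of 6 neural crest markers in neuroectoderm was 109 to 116 CPM in hHAR123, 1473 to 1490 CPM in HAR123-KO, 256 to 268 CPM in the libraries labelled cHAR123 and 286 to 291 CPM in those labelled mHAR123. The summed level of the neuroectoderm markers was 1228 to 1242 CPM in hHAR123 and 615 to 628 CPM in HAR123-KO, where LHX2 and SIX3 were under 1 CPM. In neuroectoderm the study's gene list for the chimpanzee genotype matches the columns labelled mHAR123, and its list for the mouse genotype matches the columns labelled cHAR123. The column labels were kept here. Each result that joins these libraries to ESCs is given both ways where the exchange changes the call.

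Levels were expressed as CPM scaled with TMM factors, which align the bulk of the genes between libraries. Between stages this choice matters, because without it, with scaling by library totals, the median log2 fold change of all genes from ESCs to neuroectoderm was 0.34 in hHAR123, 0.23 in HAR123-KO, 0.25 in cHAR123 and 0.20 in mHAR123, compared with 0.03 to 0.05 with TMM. Stage changes are therefore relative to the bulk of the genes, and changes of sign under library totals are stated beside them.

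The 8 factors were all expressed at both stages, with 529 to 12016 counts in every library. Per kilobase of exon in hHAR123 ESCs, SMG5 was the highest at 39.7 ± 0.879 CPM per kilobase (SD, n = 3), followed by UPF1 at 20.2 ± 0.444. SMG1 (14.9 ± 0.262), UPF3A (13.0 ± 0.442), UPF2 (11.7 ± 0.151) and UPF3B (11.6 ± 0.476) formed a middle group in which UPF2 and UPF3B differed by less than their SDs. The 2 partners of the kinase were the lowest, SMG8 at 6.99 ± 0.472 and SMG9 at 3.36 ± 0.366 CPM per kilobase, and SMG6 stood near them at 8.26 ± 0.0864. In hHAR123 neuroectoderm, SMG5 remained highest at 25.5 ± 1.19 CPM per kilobase and SMG9 lowest at 4.88 ± 0.138. UPF1 came down to 11.2 ± 0.522, among UPF2, UPF3A and UPF3B, which ranged from 10.2 to 12.3. The exon lengths are those of all annotated exons merged, which understates genes with many unused exons.

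**Figure D1:**
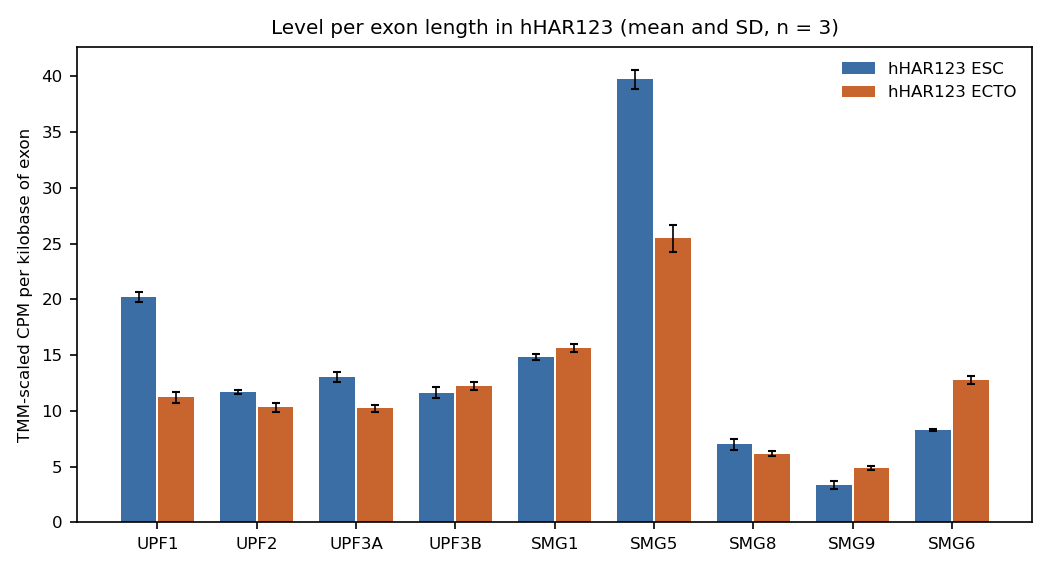
Bars give the mean level per kilobase of exon (TMM-scaled CPM per kilobase, vertical axis from 0) of the 8 NMD factors and SMG6 in hHAR123 ESCs (blue) and hHAR123 neuroectoderm (orange), and error bars give the SD of 3 libraries. SMG5 is the highest at both stages (39.7 and 25.5), and UPF1 goes from 20.2 to 11.2.

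On GRCh38 the genes lie apart, on 7 chromosomes. UPF1 (ENSG00000005007) spans chr19:18831959-18868230, UPF2 (ENSG00000151461) chr10:11920022-12043170, UPF3A (ENSG00000169062) chr13:114281601-114305817 and UPF3B (ENSG00000125351) chrX:119805311-119852998. SMG1 (ENSG00000157106) spans chr16:18804860-18926408, SMG8 (ENSG00000167447) chr17:59209400-59215239, SMG9 (ENSG00000105771) chr19:43727983-43754962 and SMG5 (ENSG00000198952) chr1:156249224-156282825. SMG8 shares its chromosome with SMG6 (chr17:2059839-2303785), the host of HAR123, but lies far from it. The values are counts over all exons of a gene.

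SMG1 needs caution. Its 7 annotated copies, SMG1P1 to SMG1P7, together held 2.05 to 2.44 times as many counts as SMG1 itself in a library, and reads could be divided among them. The 3 copies of UPF3A held 8.95% to 16.8% of the counts of UPF3A. Exons of UPF1, UPF2, UPF3A, UPF3B, SMG5 and SMG9 overlapped no exon of another gene. SMG8 shared 422 exon bases with a gene that had no count in any library, SMG1 shared 171 exon bases with an antisense gene that had 17 counts in all, and 22.9% of the exon bases of SMG6 were shared with a gene on the opposite strand. Counts of such overlaps can mix the strands, since the strand setting is not given. The SMG6 values also pool the many annotated transcripts of its locus, so they do not measure the full-length mRNA alone.

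The first question was how the NMD factors change as ESCs become neuroectoderm. UPF1 and SMG5, which act at recognition and at decay, fell the most in each genotype, by 26.7% to 44.5%. UPF3A fell in each genotype as well, SMG9 rose in each, and the changes of UPF2, UPF3B, SMG1 and SMG8 were small and passed the test only in some genotypes. In hHAR123, 5 of the 8 factors fell and 1 rose at an adjusted p under 0.01, where 39.7% and 40.3% of all genes tested fell and rose. None of the 8 changed by more than 1 on the log2 scale here or in any other comparison, whereas 45.9% of all genes passed that fold with the test. The median log2 fold change of the 8 was -0.18, beside 0.05 for all genes.

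In hHAR123, UPF1 stood at 175, 176 and 169 CPM in ESCs and at 91.7, 96.0 and 101 CPM in neuroectoderm. The stages did not overlap in any genotype: UPF1 was 166 to 176 CPM in all 12 ESC libraries and 91.7 to 116 CPM in all 12 neuroectoderm libraries. UPF1 changed by -0.85 (log2) in hHAR123 (standard error 0.04, adjusted p = 6.5e-23), -0.55 in HAR123-KO, -0.70 in cHAR123 and -0.60 in mHAR123. With library totals it was -0.56, -0.35, -0.49 and -0.44, still past the test in each genotype. SMG5, an adaptor that links phosphorylated UPF1 to decay enzymes, was at 214, 213 and 205 CPM in hHAR123 ESCs and at 129, 135 and 141 CPM in neuroectoderm. Every neuroectoderm library of any genotype was lower for SMG5 than every ESC library. The change of SMG5 was -0.64 in hHAR123 (standard error 0.04, adjusted p = 2.0e-19), -0.56 in HAR123-KO, -0.47 in cHAR123 and -0.45 in mHAR123. With library totals these became -0.34, -0.36, -0.26 and -0.28. Leaving out any library, using DESeq2, or exchanging the names of the cHAR123 and mHAR123 neuroectoderm libraries did not end the call of UPF1 or SMG5 in any genotype.

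**Figure D2:**
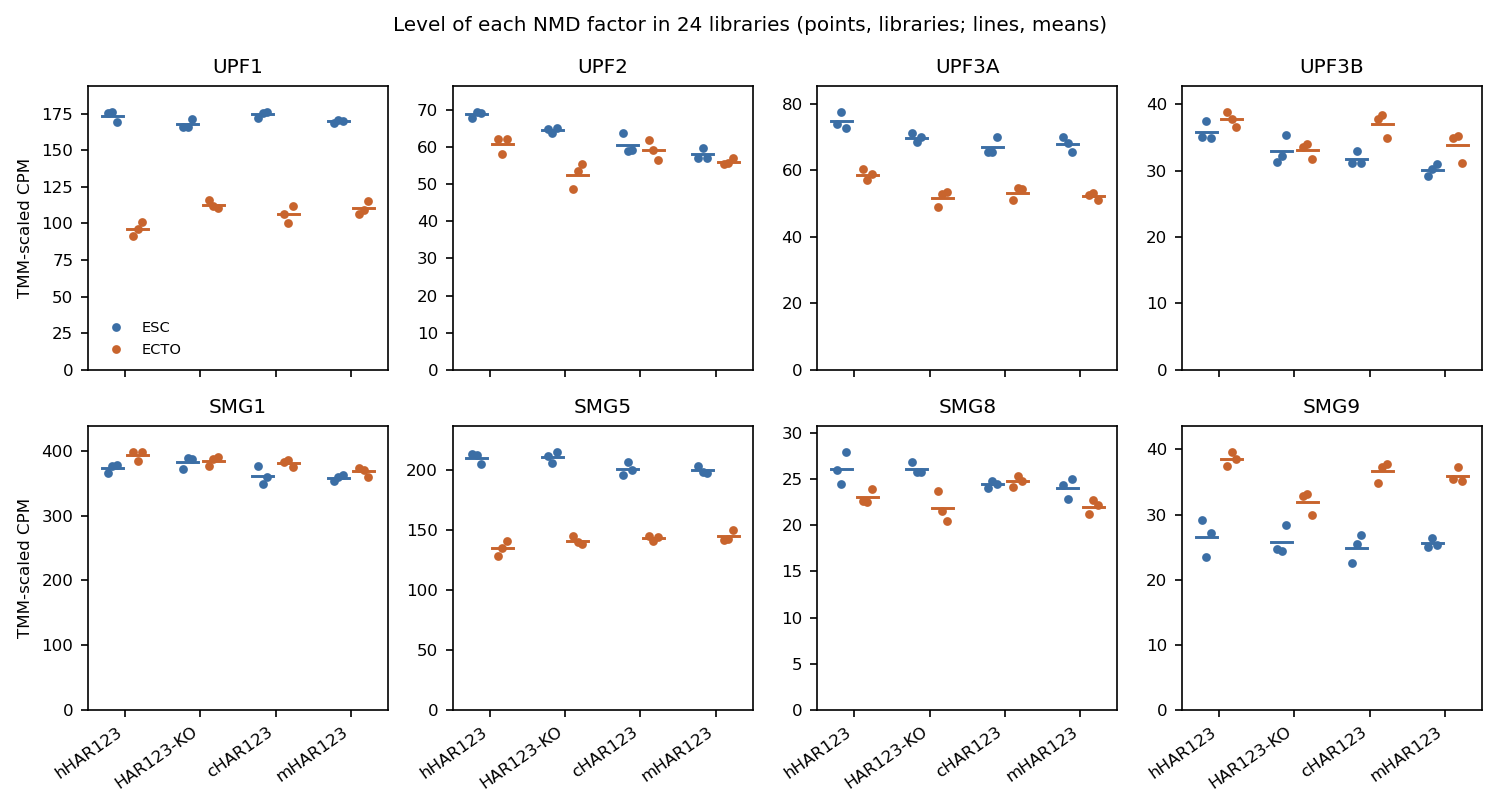
Each panel plots the TMM-scaled CPM (vertical axis, from 0) of an NMD factor in the 4 genotypes (horizontal axis), with a point for each of 3 libraries and a line at their mean, for ESCs (blue) and neuroectoderm (orange). The stages are separate for UPF1, SMG5, UPF3A and SMG9, with UPF1 at 166 to 176 CPM in ESCs and 91.7 to 116 CPM in neuroectoderm.

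The sequences before the start sites of UPF1 and SMG5 are shown because these genes fell the most in each genotype. They cover the 250 bases upstream of the start in RefSeq (GRCh38.p14), which for both is also the start of the gene in the counts table. UPF1 lies on the plus strand (chr19:18831709-18831958 for the bases shown), and SMG5 on the minus strand (chr1:156282826-156283075). Capitals mark GGGCGG on either strand, the core of a GC box.
UPF1: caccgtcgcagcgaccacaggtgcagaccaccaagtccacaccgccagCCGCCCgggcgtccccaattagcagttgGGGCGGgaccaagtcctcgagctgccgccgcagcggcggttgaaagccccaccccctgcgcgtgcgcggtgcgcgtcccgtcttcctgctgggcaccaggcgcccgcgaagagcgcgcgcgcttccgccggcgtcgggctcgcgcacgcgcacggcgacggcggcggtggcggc
SMG5: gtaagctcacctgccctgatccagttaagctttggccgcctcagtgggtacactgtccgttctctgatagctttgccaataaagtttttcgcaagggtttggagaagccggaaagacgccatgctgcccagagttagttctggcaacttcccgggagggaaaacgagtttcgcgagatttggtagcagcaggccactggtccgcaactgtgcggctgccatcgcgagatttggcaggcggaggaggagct
GGGCGG occurred 2 times before UPF1 and 0 times before SMG5, and 42.6% of 35116 promoters of the same length hold it. The motif CCAAT, also searched on both strands, occurred 1 time before each, and 32.0% of promoters hold it, whereas TATAAA was before neither (10.7% of promoters). GC content was 75.6% before UPF1, above 90.7% of all promoters, and 55.6% before SMG5, near the median of 58.0%. CCAAT also occurred 2 times before UPF2 and 2 times before UPF3B, and was absent before UPF3A, SMG1 and SMG9. GGGCGG was also present before UPF2, UPF3A, UPF3B and SMG1, and absent before SMG9, which rose. SMG8 had no entry in the promoter table.

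The UPF1 adaptors moved less. UPF3A, a paralog of UPF3B with weaker or opposing activity in NMD, was at 74.0, 77.7 and 72.8 CPM in hHAR123 ESCs and at 60.4, 57.1 and 58.8 CPM in neuroectoderm. It changed by -0.35 in hHAR123 (standard error 0.04, adjusted p = 1.2e-09), -0.41 in HAR123-KO, -0.31 in cHAR123 and -0.36 in mHAR123. All stage pairs were separate, but with library totals UPF3A no longer passed in hHAR123 (-0.05, adjusted p = 0.24) or cHAR123 (-0.11, adjusted p = 0.018). UPF2, the bridge between UPF1 and UPF3, fell in hHAR123 (-0.18, adjusted p = 0.0002) and HAR123-KO (-0.27, adjusted p = 4.3e-08), and its log2 fold change was -0.01 in cHAR123 and -0.03 in mHAR123. The direction of UPF2 depended on the scaling, since with library totals it was 0.12 in hHAR123, -0.07 in HAR123-KO, 0.19 in cHAR123 and 0.14 in mHAR123. UPF3B, the X-linked paralog, rose in cHAR123 (0.24, adjusted p = 3.5e-05) and mHAR123 (0.19, adjusted p = 0.0014), beside 0.08 in hHAR123 and 0.03 in HAR123-KO. With the names of the neuroectoderm libraries exchanged, UPF3B was 0.12 in cHAR123 (adjusted p = 0.044) and 0.31 in mHAR123 (adjusted p = 1.5e-07), and with DESeq2 it passed in neither. The mHAR123 call also ended without mHAR123 ESC replicate 1 or 2 or without mHAR123 neuroectoderm replicate 2.

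Within the kinase complex the partners moved apart. SMG9 was at 29.1, 23.4 and 27.1 CPM in hHAR123 ESCs and at 37.5, 39.7 and 38.5 CPM in neuroectoderm. All neuroectoderm libraries of every genotype exceeded all ESC libraries for SMG9, although HAR123-KO neuroectoderm (32.8, 33.1 and 30.0 CPM) came nearest to ESCs. The rise was 0.54 (log2) in hHAR123 (standard error 0.06, adjusted p = 1.1e-10), 0.33 in HAR123-KO, 0.57 in cHAR123 and 0.51 in mHAR123. SMG8 was at 26.0, 24.5 and 28.0 CPM in hHAR123 ESCs and at 22.6, 22.6 and 23.9 CPM in neuroectoderm. It fell in hHAR123 (-0.18, adjusted p = 0.0068) and in HAR123-KO (-0.23, adjusted p = 0.00053), and was 0.04 in cHAR123 and -0.11 in mHAR123. The fall of SMG8 in hHAR123 did not hold with library totals (0.11), nor without ESC replicate 3 or without neuroectoderm replicate 1 or 2 (adjusted p up to 0.049), and that in HAR123-KO was -0.03 with library totals and failed without neuroectoderm replicate 3 (adjusted p = 0.013). SMG1, the kinase, stayed within 348 and 399 CPM over all 24 libraries. Its rise passed the test in cHAR123 only (0.10, adjusted p = 0.0013). It was 0.08 in hHAR123 (adjusted p = 0.014), 0.06 in mHAR123 (adjusted p = 0.044) and 0.03 in HAR123-KO (adjusted p = 0.24). SMG1 also passed in hHAR123 without neuroectoderm replicate 2 and in mHAR123 without neuroectoderm replicate 3. The cHAR123 call ended without cHAR123 ESC replicate 2 or 3, with DESeq2 and with DESeq2 size factors. It also ended with the names exchanged, which gave a call in mHAR123 instead (0.10). With library totals SMG1 rose in all 4 genotypes by 0.23 to 0.37.

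The counts in the other genotypes were of the same size. In HAR123-KO, 5 factors fell and 1 rose, where 39.4% and 39.8% of all genes did. In cHAR123, 3 fell and 3 rose, where 39.4% and 39.5% of all genes did. In mHAR123, 3 fell and 2 rose, where 39.5% and 39.1% of all genes did. These shares, 5 or 6 of 8, stood beside 80.1% of all genes called in either direction in hHAR123, 79.2% in HAR123-KO, 78.9% in cHAR123 and 78.6% in mHAR123. With library totals the split of the 8 factors became 3 higher and 2 lower in hHAR123, 3 and 3 in HAR123-KO, 5 and 2 in cHAR123, and 4 and 3 in mHAR123, and of all called genes in hHAR123 61.5% were higher instead of 50.4%. SMG6, the gene that hosts HAR123, rose in each genotype, by 0.63 in hHAR123, 1.13 in HAR123-KO, 0.99 in cHAR123 and 0.94 in mHAR123.

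**Figure D3:**
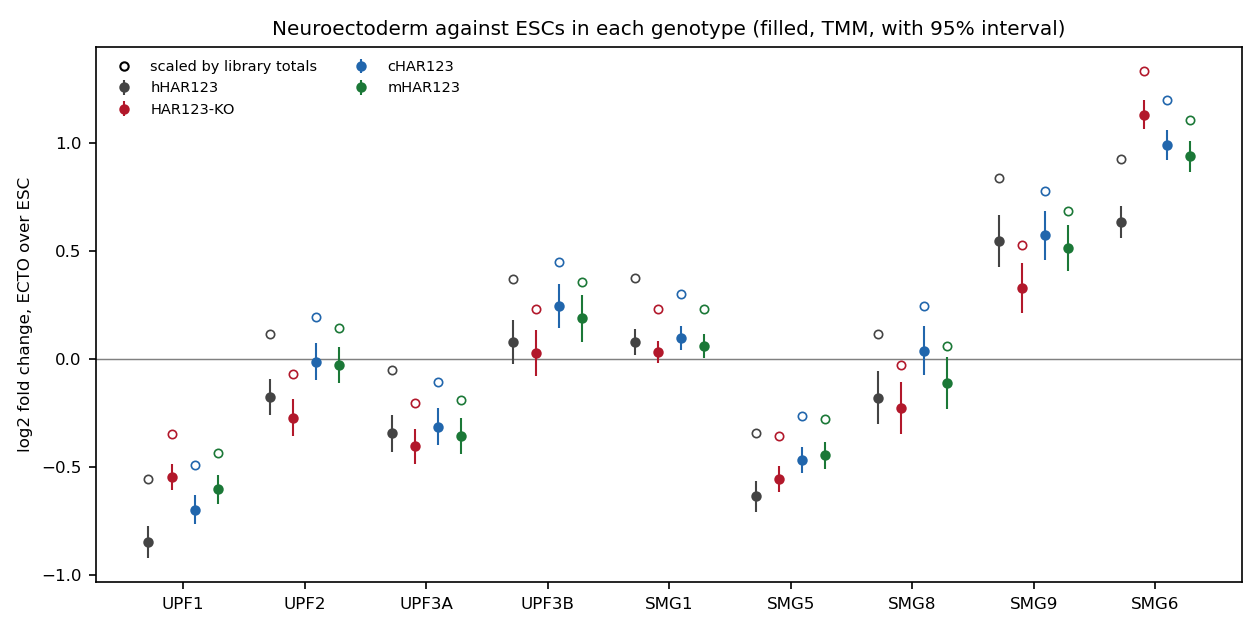
Log2 fold change from ESCs to neuroectoderm (vertical axis) of the 8 NMD factors and SMG6 in the 4 genotypes (colors). Filled points with bars are TMM-scaled estimates with 95% intervals and open points are estimates scaled by library totals. UPF1 and SMG5 lie below 0 and SMG9 and SMG6 above 0 in each genotype under both scalings, whereas UPF2 and SMG8 change sign in hHAR123.

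The next question was whether the stage change of these factors differed from that of hHAR123 in the other genotypes, tested as an interaction over 12 libraries. UPF1 fell less in HAR123-KO than in hHAR123, by 0.28 on the log2 scale (standard error 0.05, 95% interval 0.18 to 0.37, adjusted p = 4.1e-06), and it was the sole factor of the 8 that passed, where 18.6% of all genes passed as higher and 13.9% as lower. UPF1 passed in each of the 12 fits that left out a library (0.24 to 0.31) and with library totals (0.21). SMG9 rose less in HAR123-KO, by -0.24 (95% interval -0.42 to -0.07), which missed the threshold (adjusted p = 0.022) and passed with library totals (-0.31, adjusted p = 0.003) together with SMG1 (-0.14, adjusted p = 0.0029). It passed as well without hHAR123 ESC replicate 1. In the libraries labelled mHAR123, UPF1 (0.23, adjusted p = 0.00065) and SMG5 (0.17, adjusted p = 0.0066) fell less than in hHAR123, where 9.06% of all genes passed as higher and 3.75% as lower. Neither held with library totals (0.12 and 0.07), which called SMG1 lower instead (-0.14, adjusted p = 0.0091), or with the neuroectoderm names exchanged (0.16 and 0.15, adjusted p = 0.016 and 0.013), and SMG5 also failed in 8 of the 12 fits that left out a library. In the libraries labelled cHAR123 none of the 8 passed in edgeR at an adjusted p under 0.01, where 5.63% of all genes passed as higher and 3.07% as lower. Of the 8, 4 had an unadjusted p under 0.05. The share of all genes at that unadjusted threshold was not counted, here or below, so such counts are not a result about the factors. With the names exchanged, UPF1 passed in cHAR123 (0.19, adjusted p = 0.0071), and with DESeq2 SMG5 did (0.18, adjusted p = 0.0034). SMG6 differed in each genotype, by 0.47 in HAR123-KO, 0.32 in cHAR123 and 0.28 in mHAR123. All 3 interactions share the hHAR123 libraries. With library totals the share of higher genes among all called went from 57.2% to 46.9% in HAR123-KO, from 64.7% to 40.1% in cHAR123 and from 70.7% to 34.7% in mHAR123.

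The genotypes were then compared within neuroectoderm. HAR123-KO had more UPF1 mRNA than hHAR123, by 19.2%, whereas SMG9 decreased by 15.9%, UPF2 decreased by 12.1%, UPF3B decreased by 10.8% and UPF3A decreased by 10.4%. Thus 1 factor was higher, where 24.2% of all genes tested were, and 4 were lower, where 19.9% were. None passed the fold limit of 1 on the log2 scale, which 9.45% of all genes did. The median of the 8 was -0.10, beside 0.00 for all genes.

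In neuroectoderm, UPF1 was at 116, 112 and 111 CPM in HAR123-KO, above all 3 hHAR123 libraries (91.7, 96.0 and 101 CPM). This came to a log2 difference of 0.25 with a standard error of 0.04 (adjusted p = 1.0e-07), and to 0.21 to 0.28 when each library was left out. SMG9 did the reverse, with 32.8, 33.1 and 30.0 CPM in HAR123-KO and 37.5, 39.7 and 38.5 CPM in hHAR123 (-0.25, standard error 0.05, adjusted p = 7.4e-05). UPF2 was at 48.7, 53.5 and 55.3 CPM in HAR123-KO and at 62.1, 58.0 and 62.1 CPM in hHAR123 (-0.19, standard error 0.05, adjusted p = 0.00066). UPF3A was at 49.1, 53.0 and 53.4 CPM compared with 60.4, 57.1 and 58.8 CPM (-0.16, adjusted p = 0.0027), and UPF3B at 33.6, 34.1 and 31.8 CPM compared with 38.9, 37.8 and 36.5 CPM (-0.16, adjusted p = 0.0066). Without HAR123-KO replicate 1, however, UPF2, UPF3A and UPF3B no longer passed and 2 of the 8 were left, and DESeq2 called 3, losing UPF3A and UPF3B. UPF3B also failed without HAR123-KO replicate 3 or without hHAR123 replicate 1 or 2. SMG5 was 0.09 (95% interval 0.02 to 0.16, adjusted p = 0.035), SMG8 -0.05 (95% interval -0.18 to 0.08) and SMG1 -0.01 (95% interval -0.07 to 0.05).

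These differences accompanied the marker changes given above. In HAR123-KO neuroectoderm all 6 neural crest markers were higher than in hHAR123 (median log2 fold change 5.35) and 6 of 7 neuroectoderm markers were lower (median -1.60). The part of these markers' cell types in the values of the NMD factors was not tested. In bulk RNA, a change in the mix of cells and a change of RNA per cell cannot be told apart.

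The libraries labelled mHAR123 differed from hHAR123 neuroectoderm in 2 of the 8 factors. UPF1 was at 106, 109 and 115 CPM (0.19, adjusted p = 0.00048) and UPF3A at 52.5, 53.2 and 51.2 CPM (-0.17, adjusted p = 0.0048), so 1 was higher and 1 lower, where 8.8% and 5.21% of all genes were. The UPF3A call ended in 5 of the 6 fits that left out a library, with DESeq2 (adjusted p = 0.022) and with no filter (adjusted p = 0.011), and the UPF1 call ended without mHAR123 replicate 3 (adjusted p = 0.011). DESeq2 called SMG1 lower in place of UPF3A (-0.09, adjusted p = 0.0094). With library totals 5 factors passed, since UPF2 (-0.16), UPF3B (-0.20) and SMG1 (-0.14) joined them, and the share of higher genes among all called went from 62.8% to 41.1%. In the libraries labelled cHAR123, UPF1 was at 106, 101 and 112 CPM (0.14, adjusted p = 0.011) and UPF3A at 51.0, 54.6 and 54.5 CPM (-0.14, adjusted p = 0.018). None of the 8 passed in edgeR at an adjusted p under 0.01, where 5.9% of all genes were higher and 3.99% lower, 3 had an unadjusted p under 0.05, and DESeq2 called 0. UPF1 passed there without hHAR123 replicate 3 or without cHAR123 replicate 2, with no filter (adjusted p = 0.0052) and with all 24 libraries in 1 fit (adjusted p = 0.0034). Neural crest markers were higher in both as well, 6 of 6 in each, with medians of 1.83 in cHAR123 and 2.31 in mHAR123, and their part in these values was likewise not tested.

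The order of UPF1 levels in neuroectoderm was hHAR123 (96.1 ± 4.47 CPM, SD, n = 3), cHAR123 (106 ± 5.66), mHAR123 (110 ± 4.72) and HAR123-KO (113 ± 2.70). Only hHAR123 stood apart from HAR123-KO and mHAR123 by the test. The neighbours did not differ past it: the log2 difference was 0.05 (95% interval -0.02 to 0.12) from cHAR123 to mHAR123 and 0.04 in size from mHAR123 to HAR123-KO (mHAR123 minus HAR123-KO -0.04, 95% interval -0.10 to 0.03). For SMG9 the order was the opposite, with HAR123-KO lowest (32.0 ± 1.72 CPM), then mHAR123 (36.0 ± 1.11), cHAR123 (36.6 ± 1.53) and hHAR123 (38.6 ± 1.09). Here HAR123-KO was the genotype that stood apart, being lower than each of the others.

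Compared directly with HAR123-KO neuroectoderm, the libraries labelled cHAR123 were higher in SMG9 (0.19, adjusted p = 0.00075), UPF2 (0.17, adjusted p = 0.00042) and UPF3B (0.16, adjusted p = 0.0044), so that 3 of 8 factors were higher and 0 lower, where 18.8% and 20.3% of all genes were. The libraries labelled mHAR123 were higher in SMG9 only (0.17, adjusted p = 0.0059), where 17.8% of all genes were higher and 18.7% lower. The SMG9 call ended without HAR123-KO replicate 3 in both comparisons, that of UPF2 ended without HAR123-KO replicate 1 or cHAR123 replicate 1, and that of UPF3B ended without HAR123-KO replicate 3 or cHAR123 replicate 1 or 2 and with DESeq2 (adjusted p = 0.021). In mHAR123 the SMG9 call also ended without mHAR123 replicate 2, with library totals and with DESeq2 (adjusted p = 0.046). Between the libraries labelled mHAR123 and cHAR123 none of the 8 passed in edgeR (2.64% of all genes were higher and 1.56% lower, and with library totals the share of higher genes among all called went from 62.9% to 44.4%) and DESeq2 called 0 as well, with differences of -0.17 (SMG8, 95% interval -0.29 to -0.05) to 0.05 (UPF1). Of the 8, 4 had an unadjusted p under 0.05, a threshold at which the share of all genes was not counted.

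**Figure D4:**
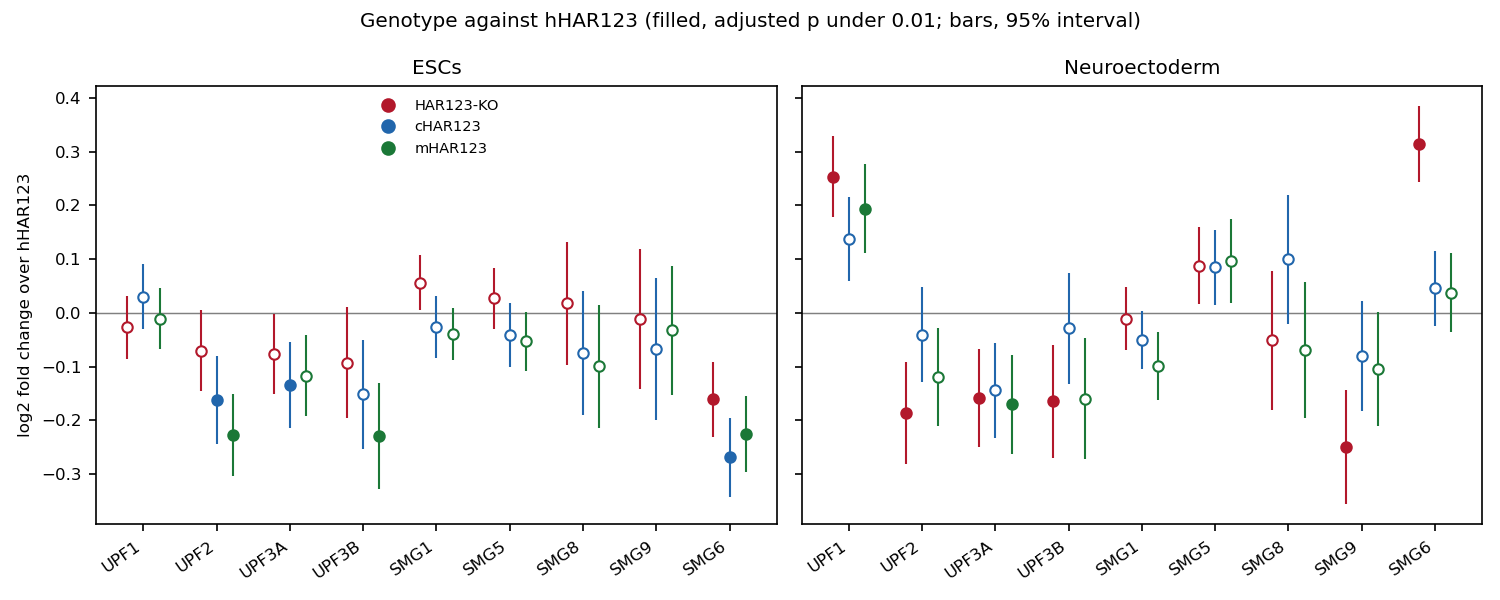
Log2 fold change over hHAR123 (vertical axis) of the 8 NMD factors and SMG6 in HAR123-KO (red), cHAR123 (blue) and mHAR123 (green), in ESCs (left) and neuroectoderm (right). Bars are 95% intervals and filled points passed an adjusted p under 0.01. UPF1 is near 0 in ESCs and at 0.14 to 0.25 in neuroectoderm, while SMG6 is below 0 for all 3 genotypes in ESCs and above 0 in HAR123-KO neuroectoderm (0.31).

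In ESCs, before differentiation, UPF2 was lower in both knock-in genotypes than in hHAR123, and no factor passed in HAR123-KO. None of the 8 passed between HAR123-KO and hHAR123 in edgeR, where 7.06% of all genes were higher and 5.29% lower, 2 had an unadjusted p under 0.05, and DESeq2 called 0. Their log2 fold changes lay between -0.09 (UPF3B, 95% interval -0.20 to 0.01) and 0.06 (SMG1, 95% interval 0.01 to 0.11), and UPF1 was at -0.03 (95% interval -0.09 to 0.03). The UPF2 levels of 67.8, 69.5 and 69.2 CPM in hHAR123 stood above 63.7, 59.0 and 59.1 CPM in cHAR123 (-0.16, adjusted p = 0.0025) and above 57.1, 59.8 and 57.1 CPM in mHAR123 (-0.23, adjusted p = 6.1e-06). UPF3B was at 35.1, 37.5 and 34.9 CPM in hHAR123 and at 29.2, 30.3 and 31.0 CPM in mHAR123 (-0.23, adjusted p = 0.0003). UPF3A passed in cHAR123 by a narrow margin (-0.13, adjusted p = 0.0099). So 2 of 8 were lower in cHAR123, where 8.6% of all genes were, and 2 of 8 in mHAR123, where 10.2% were, with 0 higher in each (7.72% and 9.02% of all genes). With library totals the share of higher genes among all called went from 57.1% to 67.4% in HAR123-KO, from 47.3% to 65.3% in cHAR123 and from 47.0% to 67.3% in mHAR123.

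Both calls in cHAR123 ESCs rested on few libraries. UPF2 there failed without hHAR123 replicate 2 or 3 or without cHAR123 replicate 2 or 3, and UPF3A failed in 5 of the 6 fits that left out a library and with DESeq2 (adjusted p = 0.019). With library totals neither passed. In mHAR123 ESCs, UPF2 and UPF3B passed in all 6 such fits and with each of the other tools. UPF2 was also lower in mHAR123 than in HAR123-KO ESCs (-0.15, adjusted p = 0.0082, with 1 of 8 lower where 3.84% of all genes were, and 0 higher where 3.06% were), a call that ended whichever library was left out and with DESeq2, which called SMG1 instead (-0.09, adjusted p = 0.0053). With library totals none of the 8 passed there, and the share of higher genes among all called went from 44.4% to 58.2%. Between cHAR123 and HAR123-KO and between mHAR123 and cHAR123, none of the 8 passed in edgeR or DESeq2. All genes gave 3.81% higher and 4.28% lower in the first and 0.434% higher and 0.348% lower in the second, and 2 and 0 factors had an unadjusted p under 0.05. SMG1 passed between cHAR123 and HAR123-KO without cHAR123 replicate 1. SMG6 was lower than in hHAR123 ESCs in all 3 genotypes, by -0.16 in HAR123-KO (adjusted p = 0.00047), -0.27 in cHAR123 (adjusted p = 3.7e-07) and -0.23 in mHAR123 (adjusted p = 2.0e-06). All 3 differences share the hHAR123 ESC libraries and are not independent of each other. They are gene-level values that pool the transcripts of the SMG6 locus. The study, with its fold limit of 1 on the log2 scale, reported no significant reduction of full-length SMG6 mRNA in HAR123-KO at either stage.

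Other genes of the pathway gave a setting for these values. From ESCs to hHAR123 neuroectoderm, 6 of 7 genes of the exon junction complex were lower and 1 higher, where 39.7% of all genes were lower and 40.3% higher, with EIF4A3, its RNA-clamping helicase, at -1.56 (standard error 0.04) and MAGOH at -1.04. The release factors GSPT1 (-1.50) and ETF1 (-1.26) were lower and GSPT2 was higher (0.16). Of 10 further factors that the study names in connection with NMD, 7 were lower, among them the ATPases RUVBL2 (-1.84) and RUVBL1 (-1.60) and the ribosome recycling factor ABCE1 (-1.77), and 3 were higher. Of 6 genes of decapping and 5′ decay, the exonuclease XRN1 was higher (1.61), with 2 higher and 3 lower in all. The largest change among the 8, that of UPF1 (-0.85), was smaller than that of the leading gene of each of these lists. The leading genes were picked for the size of their change, and other genes of the lists changed by less than UPF1.

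In HAR123-KO compared with hHAR123 neuroectoderm these lists split as well. EIF4A3 was higher (0.34) and CWC22 lower (-0.31) among the 7 exon junction genes, GSPT1 was higher (0.37) and GSPT2 lower (-0.46) among the 3 release factors, and XRN1 was lower (-0.36) while PNRC2 (0.22) and EDC4 (0.17) were higher among the 6 decay genes. Of the 10 further factors 6 were higher and 2 lower, where 24.2% of all genes were higher and 19.9% lower, led by the kinase AKT1 (0.90), RUVBL2 (0.43) and ABCE1 (0.40). Of 16 transcripts known as NMD targets, 5 were higher and 4 lower (median 0.00), shares near those of all genes, with GADD45B at -0.99, UPP1 at -0.67 and ATF3 at 0.33. In ESCs 4 of the 16 were higher and 1 lower in HAR123-KO (median 0.10), where 7.06% of all genes were higher and 5.29% lower, with GADD45B at 0.81, UPP1 at 0.29 and TBL2 at -0.25. Gene-level counts of such targets do not separate the isoforms that NMD degrades from the others, and several are stress genes. By qPCR of ATF4, GAS5 and SMG5 as targets, the study found no significant effect on NMD magnitude in HAR123-KO ESCs. SMG5 is thus a target as well as a factor, and is listed here with the factors only. In hHAR123, 6 of the 16 targets rose and 10 fell from ESCs to neuroectoderm, where 40.3% of all genes rose and 39.7% fell. The largest changes were those of ATF4 (-1.52), UPP1 (-1.50) and SNHG12 (-1.36).

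**Figure D5:**
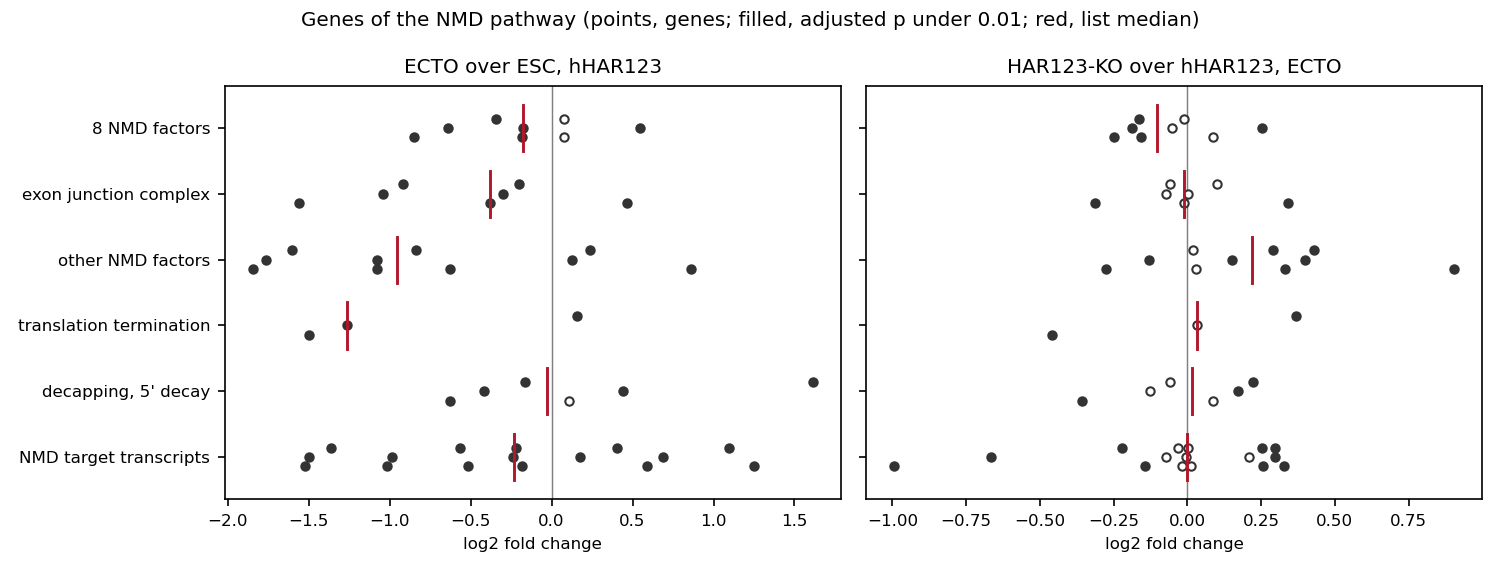
Log2 fold change (horizontal axis) of each gene in the lists of the NMD pathway (rows), for ECTO over ESC in hHAR123 (left) and HAR123-KO over hHAR123 in neuroectoderm (right). Filled points passed an adjusted p under 0.01 and red lines are list medians. The 8 NMD factors lie within -0.85 to 0.54 on the left and -0.25 to 0.25 on the right, narrower than the exon junction genes and the further factors.

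Finally, the factors were compared with each other across the 24 libraries, after the mean of each stage was subtracted from log2 CPM. UPF2 varied with UPF3B (r = 0.72) and UPF3A (r = 0.69), and UPF3A with UPF3B (r = 0.61). UPF1 varied with SMG5 (r = 0.61) and opposite to UPF3A (r = -0.58), SMG1 (r = -0.49), UPF2 (r = -0.47) and UPF3B (r = -0.47). The 24 points share genotypes, libraries and scaling factors, so these values describe this set and carry no test. Among 10789 named genes with at least 10 CPM on average, the one most like UPF1 was REXO1 (r = 0.94), that most like UPF2 was TARDBP (r = 0.92), and that most like SMG1 was GLRX3 (r = 0.90). For UPF3B it was CRNKL1 (r = 0.87), for SMG5 WDR1 (r = 0.86), for UPF3A RPS25 (r = 0.84), for SMG9 LRRC49 (r = 0.78) and for SMG8 ZNF417 (r = 0.73). No factor among the 8 was the nearest gene of another.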

How the data were processed

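RNA was sequenced from 24 libraries of H9 cells, 3 for each of 4 genotypes at 2 stages, and samples were grouped by their titles. Per the labels and the study's methods, the authors depleted ribosomal RNA, made directional paired-end libraries, aligned reads to GRCh38 with STAR 2.5.2b (the submitters' processing notes) and deposited raw counts per Ensembl gene from featureCounts, with no normalization. The strand setting is not given in the sources used here. A merged exon length per gene is also deposited. An entry broken over 3 lines was left out, leaving 61551 genes.

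Each comparison was fitted on its own libraries (6 per pair, 12 per interaction) with edgeR 4.0.16 in R 4.3.3: filterByExpr, TMM, its quasi-likelihood test, with p-values adjusted by Benjamini-Hochberg over all genes tested. A call is an adjusted p under 0.01. Every adjusted p is from this test unless another tool is named. Standard errors are the absolute log2 fold change over the square root of F. Tables and figures used Python 3.11.15. The fits were tested on simulated data. Total counts set the precision, and libraries of a group differed by more than sampling noise.

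The 8 factors were all named in every comparison, with SMG6 and, from other lists, at most 3 called genes of largest change. Likeness named the gene with the highest r. The correlations between factors and the motifs stand beside these. Another gene of the pathway is not reported here. The factors were picked by name, and both they and the lists were chosen with earlier results of these data known. Alternatives were DESeq2 1.42.0, DESeq2 size factors, library totals, no filter, all 24 libraries in 1 fit, a replicate block, an adjusted p under 0.05, and leaving out each library. Exchanging the cHAR123 and mHAR123 neuroectoderm names was added after the data were seen.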

Additional observations from a re-analysis of the deposited data

Results flagged for a closer look

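The stage change of 3 results differed from that in hHAR123 by the interaction test. UPF1 differed in HAR123-KO, by 0.28 on the log2 scale (adjusted p = 4.1e-06, edgeR's quasi-likelihood test), because it fell by 0.55 from ESCs to neuroectoderm in HAR123-KO and by 0.85 in hHAR123. The 3 HAR123-KO neuroectoderm libraries (111 to 116 CPM) all lay above the 3 of hHAR123 (91.7 to 101 CPM). UPF1 also differed in the libraries labelled mHAR123, by 0.23 (adjusted p = 0.00065, same test), where it fell by 0.60. SMG5 differed in the libraries labelled mHAR123, by 0.17 (adjusted p = 0.0066, same test), where it fell by 0.45 compared with 0.64 in hHAR123. All 3 are measured against the same 6 hHAR123 libraries. With the neuroectoderm names of cHAR123 and mHAR123 exchanged, UPF1 (0.16) and SMG5 (0.15) no longer passed in mHAR123, nor did they with library totals (0.12 and 0.07). SMG5 also failed in 8 of the 12 fits that left out a library. Neural crest markers were higher in neuroectoderm of each of the other genotypes than in hHAR123, and their part in these results was not tested.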

How the results depend on the processing

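Of the 42 calls of an NMD factor in a comparison, DESeq2 size factors kept 41, all 24 libraries in 1 fit 41, no filter 40, the replicate block 36, DESeq2 32 and library totals 30. These settings also added calls: library totals 16, the replicate block 6, 1 fit 5, DESeq2 3, no filter 3 and DESeq2 size factors 0. Called values changed direction only with library totals, for UPF2 (0.12) and SMG8 (0.11) from ESCs to hHAR123 neuroectoderm. The counts below are of the 8 factors, and the cause of a change was not tested. Calls over all genes moved with the setting too, so a changed count is not a result about the factors alone. In neuroectoderm, mHAR123 against hHAR123 gave 1867 genes higher and 1105 lower, and 1278 and 1832 with library totals. Shares of all genes at an adjusted p under 0.05 were not counted. In ESCs, cHAR123 against hHAR123 gave 2, but 0 with library totals, 1 with DESeq2, 1 with the block and 0 to 1 without a library. There mHAR123 against hHAR123 gave 2, and 2 to 3 without a library, cHAR123 against HAR123-KO gave 0, and 0 to 1, and mHAR123 against HAR123-KO gave 1, but 0 with library totals or the block, 2 at an adjusted p under 0.05 and 0 without any library. In neuroectoderm, HAR123-KO against hHAR123 gave 5, but 3 with DESeq2 and 2 to 5 without a library. There cHAR123 against hHAR123 gave 0, but 1 with library totals, no filter, 1 fit or the block, 2 with the names exchanged or under 0.05, and 0 to 1 without a library. For mHAR123 against hHAR123 it was 2, but 5 with library totals, 1 with no filter, 4 with the block, 0 exchanged, 5 under 0.05 and 0 to 2 without a library. For cHAR123 against HAR123-KO it was 3, but 5 with the block, 1 exchanged, 5 under 0.05 and 1 to 4 without a library. For mHAR123 against HAR123-KO it was 1, but 0 with library totals, DESeq2, 1 fit or the block, 3 exchanged, 2 under 0.05 and 0 to 1 without a library. Between stages, leaving out a library gave 5 to 6 in hHAR123, HAR123-KO and cHAR123 and 4 to 6 in mHAR123. For the difference between stage changes, HAR123-KO gave 1, but 3 with library totals, 2 under 0.05 and 1 to 2 without a library. There cHAR123 gave 0, but 1 with DESeq2, exchanged or under 0.05, and mHAR123 gave 2, but 1 with library totals (SMG1, lower, with both higher calls lost), 1 with the block, 0 exchanged and 1 to 2 without a library. Replicate numbers did not pair the samples throughout: in 0 of 16 comparisons did every same-numbered pair deviate together at r over 0.1 (r from -0.29 to 0.32 over 10476 genes). This rule cannot exclude pairing of some samples. For mHAR123 against hHAR123, r was 0.25, 0.00 and 0.22 in ESCs and 0.32, -0.01 and 0.10 in neuroectoderm. The lowest factors, SMG8 and SMG9, had 529 to 1052 counts per library, which limits their precision.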

Other observations

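The 7 copies of SMG1 were called in several comparisons between genotypes. For SMG1 itself, edgeR gave no call between genotypes within a stage. DESeq2 called SMG1 lower in mHAR123 than in HAR123-KO ESCs (-0.09) and than in hHAR123 neuroectoderm (-0.09). In ESCs 6 of the 7 were higher in HAR123-KO than in hHAR123 (median log2 fold change 0.20), 5 in cHAR123 (median 0.17) and 6 in mHAR123 (median 0.16), at an adjusted p under 0.01 with edgeR, where 7.06%, 7.72% and 9.02% of all genes were higher. In neuroectoderm 1 of 7 was higher in HAR123-KO (median 0.02), where 24.2% of all genes were, whereas 6 of 7 were lower in cHAR123 (median -0.14) and 6 of 7 in mHAR123 (median -0.21), by label, where 3.99% and 5.21% of all genes were lower. The change between stages differed from hHAR123 for 6 of the 7 in each genotype, with medians of -0.19 in HAR123-KO, -0.30 in cHAR123 and -0.35 in mHAR123, where 13.9%, 3.07% and 3.75% of all genes passed as lower. The copies are near-identical in sequence, so they may report the same reads and do not count as 7 separate results. The copies were described after their values were seen, and the exchange of the neuroectoderm names was not examined for them.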
